A study of Mus musculus with 6 samples.

Results

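The 8 genes described here, Cst7, Clec7a, Spp1, Gpnmb, Cd9, Fabp5, Ch25h and Baiap2l2, are effector genes that mark disease-associated microglia in mouse brain. They were chosen by symbol, and each symbol matched 1 Ensembl identifier, so that they are 8 of the 54752 genes in the count tables and 8 of the 18617 genes tested. RNA was sequenced from the right hippocampus of wild-type male C57BL/6 mice (C57BL/6 J in the methods), labelled with a time of 14 weeks, in a model of chronic cerebral hypoperfusion. The 3 BCAS mice (bilateral carotid artery stenosis) wore a microcoil on each common carotid artery, with the narrower coil on the right, the 3 sham mice had the same operation without coils, and tissue was taken 3 weeks later. By the methods, the 14 weeks of the labels are therefore not the time since surgery. Each mouse gave 1 library. Library totals ran from 34301711 to 35607098 counts in sham mice and from 29652456 to 31892083 counts in BCAS mice. Levels are given as CPM (counts scaled to a common library size, with TMM factors that correct for library composition), and 3 counts in a library, taken as the limit of detection, correspond to 0.0875 to 0.0995 CPM. Differences are log2 fold changes of BCAS over sham from edgeR's quasi-likelihood test, with their standard error and with P values adjusted over all tested genes by the method of Benjamini and Hochberg. A gene passed with an adjusted P under 0.05 together with an absolute log2 fold change over 1. With 3 mice in each group, the smallest P of an exact two-sided permutation test on 1 gene is 0.1, which is why the P values of the fit over all genes are given.

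Microglia are the resident macrophages of the brain. In healthy tissue they carry a homeostatic program marked by P2ry12 and Tmem119, and around plaques, dying neurons and damaged myelin some of them pass into the disease-associated state, in which lysosomal, lipid-handling and phagocytic genes are switched on. The later step of that state is known to depend on the receptor Trem2, and the genes described here belong to it or are commonly found with it. Their products are secreted (the cathepsin inhibitor Cst7, which is also taken to the lysosome, and the matrix protein Spp1), lie in the membrane (the receptor Clec7a, the glycoprotein Gpnmb and the tetraspanin Cd9), or serve lipid metabolism (Ch25h and Fabp5) and the actin cytoskeleton (Baiap2l2).

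Of the 8 genes, 7 passed both thresholds and all 7 were higher in BCAS mice. Over all tested genes 8.47% passed in this direction and 0.999% in the other. The exception was Fabp5. The median log2 fold change of the 8 genes was 4.37, against 0.018 over all tested genes, and single genes ran from 0.34 for Fabp5 to 10.37 for Cst7. Every BCAS mouse lay above every sham mouse for each of the 8 genes, a pattern that 25.3% of all tested genes showed. In whole hippocampus, more cells that carry a transcript and more of it per cell cannot be told apart. Detection in sham mice differed widely. No sham library had 0 counts for any of the 8 genes, and of the 24 pairs of a gene and a sham library 1, Cst7 in sham mouse 1, was at 3 counts or fewer. Per kilobase of exon, Cd9 and Fabp5 were the most abundant in sham mice with 21.6 ± 1.78 and 20.4 ± 1.42 FPKM (SD, n = 3), and Cst7 and Clec7a the least abundant with 0.149 ± 0.0772 and 0.254 ± 0.131 FPKM (SD, n = 3). In BCAS mice Cst7 led the 8 genes with 204 ± 38.2 FPKM and Baiap2l2 was the lowest with 6.46 ± 1.26 FPKM (SD, n = 3).

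**Figure D1:**
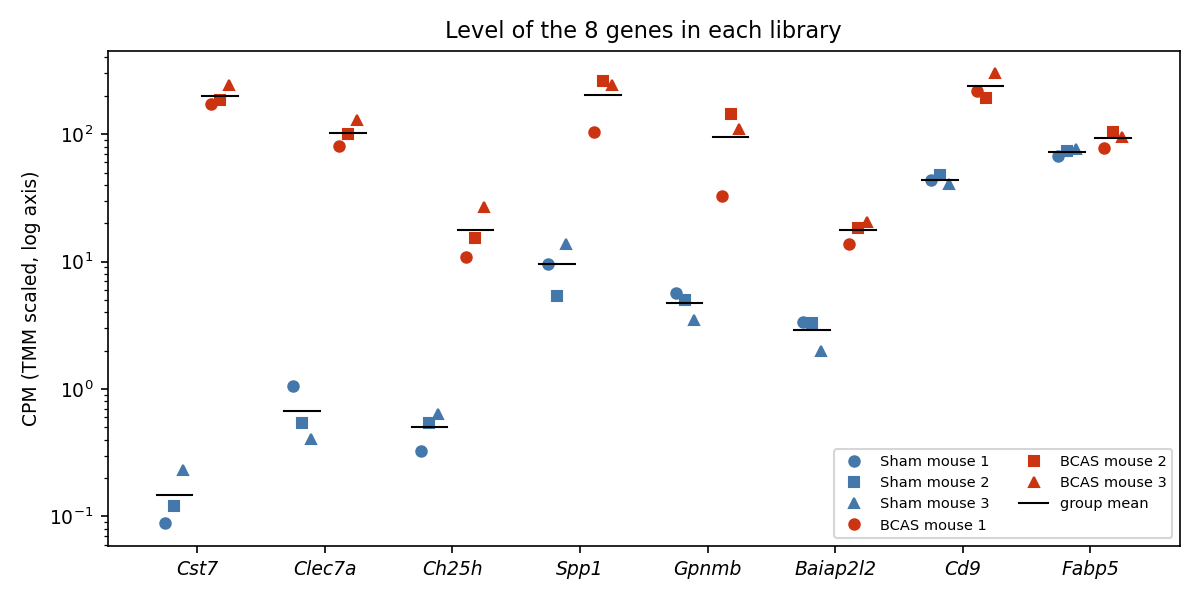
Level of each of the 8 genes in CPM (log axis) in the 3 sham mice (blue) and the 3 BCAS mice (red), with symbols for the mouse and black bars for group means. Cst7 rises from 0.147 to 201 CPM between the group means, and for Fabp5 the lowest BCAS mouse (77.7 CPM) lies just above the highest sham mouse (77.0 CPM).

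The promoters of the genes with the largest changes, Cst7 and Clec7a, and of Spp1 and Gpnmb, whose order over the BCAS mice differed from that of microglial markers, are shown as the 250 bases before the RefSeq transcript start (build GRCm38.p6, which shares its coordinates with mm10), 5′ to 3′ on the strand of the gene, with matches to searched motifs in capitals. They lie at chr2:150570165-150570414 on the plus strand, chr6:129472780-129473029 on the minus strand, chr5:104434861-104435110 on the plus strand and chr6:49036268-49036517 on the plus strand.
Cst7: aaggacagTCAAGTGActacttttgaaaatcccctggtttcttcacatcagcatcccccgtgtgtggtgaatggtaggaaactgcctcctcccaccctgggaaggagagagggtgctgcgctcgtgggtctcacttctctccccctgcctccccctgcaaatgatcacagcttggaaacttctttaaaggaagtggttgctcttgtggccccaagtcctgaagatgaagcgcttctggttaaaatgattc
Clec7a: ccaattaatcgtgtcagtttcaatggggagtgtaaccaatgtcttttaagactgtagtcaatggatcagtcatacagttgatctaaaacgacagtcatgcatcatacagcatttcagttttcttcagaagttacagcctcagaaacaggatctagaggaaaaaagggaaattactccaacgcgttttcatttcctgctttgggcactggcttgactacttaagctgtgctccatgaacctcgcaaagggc
Spp1: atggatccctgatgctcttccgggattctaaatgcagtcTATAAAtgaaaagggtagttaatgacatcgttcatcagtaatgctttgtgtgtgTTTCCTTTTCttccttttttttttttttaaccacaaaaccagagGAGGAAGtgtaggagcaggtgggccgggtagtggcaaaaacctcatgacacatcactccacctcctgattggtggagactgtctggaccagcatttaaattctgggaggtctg
Gpnmb: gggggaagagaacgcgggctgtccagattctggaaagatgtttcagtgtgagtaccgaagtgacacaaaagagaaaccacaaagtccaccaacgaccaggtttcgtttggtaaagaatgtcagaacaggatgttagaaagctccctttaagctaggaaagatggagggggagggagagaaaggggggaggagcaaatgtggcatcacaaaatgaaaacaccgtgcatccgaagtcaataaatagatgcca

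Both strands of these windows were searched for 6 motifs of factors active in macrophages or at core promoters, and 6 of the 8 genes were in the promoter table (Fabp5 and Baiap2l2 were not). Positions count back from the transcript start. The capitals in Cst7 mark TCAAGTGA at -242, a match to TCANGTGA of the MiT/TFE lysosomal factors, which 3.455% of the 32851 promoters in the table held. In Spp1 the capitals mark TATAAA at -211 (12.37% of promoters), TTTCCTTTTC at -157, which is a match on the other strand to the interferon-stimulated response element (GAAA, any 2 bases, GAAA; 2.977% of promoters), and GAGGAAG at -113, the core of a PU.1 site (10.61% of promoters). None of the 6 motifs was found in the windows shown for Clec7a and Gpnmb. Ch25h held TATAAA at -151 and, on the other strand at -112, a match to TTGCNNAA of C/EBP factors (9.564% of promoters), which a second Spp1 window also held. The AP-1 letters TGANTCA (6.749% of promoters) were found in none of the 6 genes. A match describes these letters alone.

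Cst7 (ENSMUSG00000068129.5, chr2:150570415-150578944) encodes cystatin F, a secreted inhibitor that reaches the lysosome and blocks cysteine cathepsins, cathepsin C among them. Sham mice 1 to 3 had 3, 4 and 8 counts of it. BCAS mice 1 to 3 had 5623, 5605 and 7602 counts. The gene was therefore at or near the limit of detection in all sham mice and abundant in all BCAS mice, with no overlap. In CPM the means were 0.147 ± 0.0762 in sham mice and 201 ± 37.7 in BCAS mice (SD, n = 3). Cst7 had a log2 fold change of 10.37 ± 0.25 (SE), the number 2 rank among all tested genes (edgeR adjusted P = 2.48e-07). The summed counts of 15 in sham mice and 18830 in BCAS mice, scaled by library size, gave a ratio of 1359 with a 95% interval of 824 to 2429 that covers counting error only. By FPKM it went from rank 17533 of the tested genes in sham mice to rank 113 in BCAS mice.

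Among 10 other cystatins, 3 entered the test and 1 passed. This was Cst3, cystatin C, with 970 ± 99.2 CPM in sham mice and 2483 ± 125 CPM in BCAS mice (SD, n = 3), a log2 fold change of 1.36 (edgeR adjusted P = 1.21e-04). In a test against the fold threshold itself none of the 10 passed. The lowest value was that of Cst6 with 0.18 (adjusted P = 0.698), and 6 of the 10 cystatins had 0 counts in all libraries. Of the cysteine cathepsins, the proteases that cystatins inhibit, 7 of 10 were higher, with a median log2 fold change of 2.18, and none was lower. Ctss, a protease of microglial lysosomes, had the highest value with 3.87 ± 0.20 (SE, adjusted P = 1.16e-05), and Ctsf the lowest with 0.37 ± 0.09 (SE, adjusted P = 0.0133), which misses the fold threshold. Ctsb, Ctsl and Ctsz of this list are also markers of disease-associated microglia.

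Spp1 (ENSMUSG00000029304.14, chr5:104435118-104441050) encodes osteopontin, a secreted matrix protein that binds integrins and CD44. Its counts were 323, 178 and 472 in sham mice 1 to 3. They were 3378, 7850 and 7576 in BCAS mice 1 to 3. Unlike Cst7 it was well detected in sham mice, where its highest value was 2.58 times its lowest, and BCAS mouse 1 had less than the other BCAS mice. The means were 9.54 ± 4.22 CPM in sham mice and 202 ± 85.7 CPM in BCAS mice (SD, n = 3). Spp1 had a log2 fold change of 4.40 ± 0.42 (SE, edgeR adjusted P = 1.30e-04), a 21.2-fold difference. Its exons share 309 of their 1648 bases with the predicted gene Gm42793 on the same strand, and reads there were counted for neither gene. Osteopontin receptors were higher in 4 of 9 genes and lower in none, with a median log2 fold change of 0.94. Cd44 had the highest value with 2.82 ± 0.21 (SE, adjusted P = 4.05e-05). The integrin gene Itga8 had the lowest value with -0.44 ± 0.19 (SE, adjusted P = 0.108).

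Clec7a (ENSMUSG00000079293.11, chr6:129461591-129472779) encodes dectin-1, a C-type lectin receptor for beta-glucans that signals through the kinase Syk. There were 36, 18 and 14 counts in sham mice 1 to 3. There were 2621, 3004 and 3998 counts in BCAS mice 1 to 3. The gene was thus above the detection limit in each sham mouse at a low level, and all BCAS mice were far above it. The means were 0.670 ± 0.346 CPM and 103 ± 23.9 CPM (SD, n = 3). Clec7a had a log2 fold change of 7.25 ± 0.29 (SE, edgeR adjusted P = 4.87e-06), rank 12 of all tested genes. The ratio of the scaled summed counts was 153 (95% interval 121 to 197, counting error only). Of 7 genes of dectin-1 signalling 3 were higher and none was lower, with a median log2 fold change of 0.91. Syk had the highest value with 2.45 ± 0.21 (SE, adjusted P = 7.21e-05), and the transcription factor Nfatc2 the lowest with 0.29 ± 0.13 (SE, adjusted P = 0.131).

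Gpnmb (ENSMUSG00000029816.10, chr6:49036546-49070929) encodes a transmembrane glycoprotein of lysosomes and the cell surface that accumulates in lipid-laden phagocytes. Sham mice 1 to 3 gave 193, 168 and 119 counts. BCAS mice 1 to 3 gave 1070, 4314 and 3418 counts. The groups did not overlap, and the BCAS mice differed among themselves more than for any other of the 8 genes, with a highest value 4.34 times the lowest. In CPM the means were 4.73 ± 1.14 and 95.2 ± 56.4 (SD, n = 3). Gpnmb had a log2 fold change of 4.33 ± 0.50 (SE, edgeR adjusted P = 3.68e-04), a 20.1-fold difference. It is a known target of the MiT/TFE factors, which also drive its relative Pmel in pigment cells. Of 5 genes of this list 4 were tested and none passed both thresholds, although Mitf, Tfeb and Tfe3 each had an adjusted P under 0.05. Tfe3 had the lowest value with 0.58 ± 0.10 (SE, adjusted P = 0.0028). Pmel had the highest with 1.36 ± 0.56 (SE, adjusted P = 0.0971) at a mean of 1.10 CPM in BCAS mice. Without sham mouse 2, Mitf and Pmel passed, and the count of this list moved under 2 of 16 alternative analyses.

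Cd9 (ENSMUSG00000030342.8, chr6:125460266-125494791) encodes a tetraspanin, a membrane organizer that is also found in other glia. Its counts were 1486, 1597 and 1390 in sham mice 1 to 3. They were 7128, 5786 and 9381 in BCAS mice 1 to 3. It was abundant in every sham mouse, with a spread of 1.18 times between the highest and the lowest, and all BCAS mice were higher. The means were 44.1 ± 3.64 CPM and 237 ± 56.6 CPM (SD, n = 3). Cd9 had a log2 fold change of 2.43 ± 0.16 (SE, edgeR adjusted P = 2.27e-05), a 5.39-fold difference, rank 556 of all tested genes. Its relatives among the tetraspanins were higher in 4 of 7 genes and lower in none, with a median of 1.05. Cd53, a tetraspanin of leukocytes, had the highest value with 3.42 ± 0.22 (SE, adjusted P = 2.21e-05), and Tspan2, which is abundant in oligodendrocytes, the lowest with 0.02 ± 0.15 (SE, adjusted P = 0.928). Of the Cd9 exon bases 10.7% lie opposite Gm26728, which had 4 to 14 counts per library, and the counting did not use strand.

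Ch25h (ENSMUSG00000050370.4, chr19:34473786-34475135) encodes cholesterol 25-hydroxylase, which makes 25-hydroxycholesterol. There were 11, 18 and 22 counts of it in sham mice 1 to 3. In BCAS mice 1 to 3 there were 350, 465 and 839 counts. All sham values were above the limit of detection but low, and BCAS mouse 3 had the highest value of all. The means were 0.502 ± 0.162 CPM and 17.7 ± 8.30 CPM (SD, n = 3). Ch25h had a log2 fold change of 5.13 ± 0.41 (SE, edgeR adjusted P = 4.93e-05), rank 57 of all tested genes. The ratio of the scaled summed counts was 35.1 (95% interval 26.6 to 47.4, counting error only). Gm26902 lies opposite 11.8% of its exon bases, and that gene had 36 to 58 counts in sham mice and 72 to 110 counts in BCAS mice. With strand not used, reads of this stretch cannot be assigned to either gene and were counted for neither.

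Of 11 genes that make, sense or respond to oxysterols 10 were tested, and Hsd3b7 had 0 counts in all libraries. Of the tested genes 2 were higher, against 8.47% of all tested genes, and none was lower, with a median log2 fold change of 0.059. Without BCAS mouse 3, or in a test against the fold threshold itself, 1 was higher. The highest value was that of Gpr183, the receptor for a dihydroxycholesterol made from 25-hydroxycholesterol, with 1.57 ± 0.333 CPM in sham mice and 12.7 ± 2.85 CPM in BCAS mice (SD, n = 3) and a log2 fold change of 3.01 (edgeR adjusted P = 4.65e-05). The lowest was that of Insig1, a sterol sensor of the endoplasmic reticulum, with -0.82 ± 0.08 (SE, adjusted P = 1.20e-04), which misses the fold threshold.

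Fabp5 (ENSMUSG00000027533.10, chr3:10012548-10016607) encodes a fatty acid-binding protein that carries lipids inside the cell and is not specific to microglia. Sham mice 1 to 3 had 2278, 2486 and 2641 counts. BCAS mice 1 to 3 had 2524, 3140 and 2990 counts. After scaling, BCAS mouse 1 with 77.7 CPM was next to sham mouse 3 with 77.0 CPM. These nearest mice of the groups were apart by less than the SD within either group. The means were 72.9 ± 5.06 CPM and 92.5 ± 13.5 CPM (SD, n = 3). The Fabp5 log2 fold change was 0.34 ± 0.11 (SE, edgeR adjusted P = 0.0436), a 1.27-fold difference that does not pass the fold threshold. Over the alternatives its adjusted P ran from 0.00806 to 1.00, the last from a test against the fold threshold itself. Without any one of the sham mice, or without BCAS mouse 2 or 3, it was 0.0839 to 0.155. Of 9 other fatty acid-binding proteins 2 were tested and neither passed, but the count moved under 4 of 16 alternatives. Among these, Fabp7 passed without BCAS mouse 1, and the sparsely counted Fabp4 entered the test and passed without BCAS mouse 2. Fabp7, found in astrocytes and radial glia, had 0.86 ± 0.19 (SE, adjusted P = 0.00886), and Fabp3 had -0.37 ± 0.13 (SE, adjusted P = 0.0563).

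Baiap2l2 (ENSMUSG00000018126.15, chr15:79258195-79285537) encodes an I-BAR protein, which bends membranes where actin pushes them outward. Its counts were 113, 111 and 68 in sham mice 1 to 3. They were 450, 558 and 641 in BCAS mice 1 to 3. The groups did not overlap, and the gene was detected in every sham mouse. The means were 2.88 ± 0.777 CPM and 17.6 ± 3.43 CPM (SD, n = 3). Baiap2l2 had a log2 fold change of 2.61 ± 0.23 (SE, edgeR adjusted P = 9.12e-05), a 6.12-fold difference. None of its 3 tested I-BAR relatives passed. Baiap2 had the lowest value with -0.48 ± 0.12 (SE, adjusted P = 0.0144), and Baiap2l1 the highest with 0.81 ± 0.77 (SE, adjusted P = 0.463). Baiap2l1 was 2.39, 5.42 and 0.904 CPM in sham mice 1 to 3 and 9.02, 0.829 and 5.39 CPM in BCAS mice 1 to 3, which is the order of the choroid plexus gene Ttr over the same 6 libraries.

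**Figure D2:**
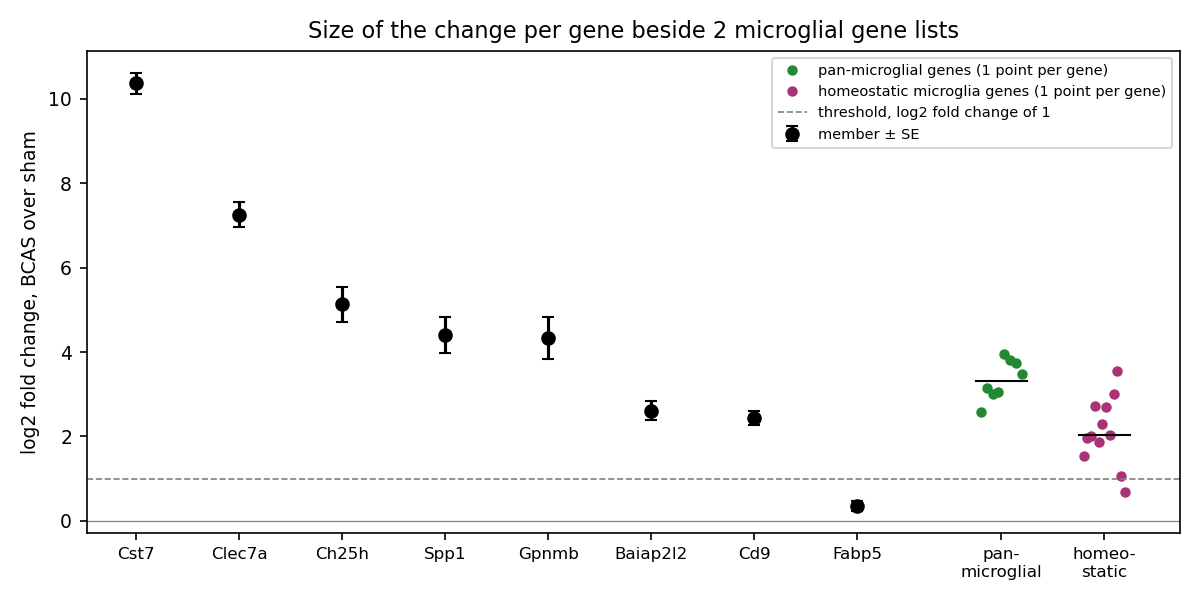
Log2 fold change of BCAS over sham for each of the 8 genes (black, with SE) beside the single genes of the pan-microglial (green) and homeostatic microglia (purple) lists, whose black bars are medians, with a dashed line at the threshold of 1. Cst7, Clec7a, Ch25h, Spp1 and Gpnmb lie above all 8 pan-microglial genes, Baiap2l2 and Cd9 lie near the lowest of them, and Fabp5 lies under every gene of both lists.

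Most other genes of the disease-associated state were also higher in BCAS mice. Of 13 other late genes 12 were higher and none was lower, with a median log2 fold change of 2.15. Itgax, the integrin CD11c, had the highest value with 6.21 ± 0.16 (SE, edgeR adjusted P = 2.48e-07), and Ank the lowest with 0.13 ± 0.08 (SE, adjusted P = 0.224). Of 9 early genes 7 were higher and none was lower, with a median of 3.19. Lyz2, lysozyme, had the highest value of these with 4.88 ± 0.27 (SE, adjusted P = 1.43e-05), and the ferritin gene Fth1 the lowest with 0.19 ± 0.13 (SE, adjusted P = 0.295). Homeostatic microglia genes were higher too, in 11 of 12 genes with none lower and a median of 2.03, from 0.68 for Golm1 to 3.54 for Fcrls. The 8 pan-microglial genes, which microglia carry in either state, were all higher with a median of 3.30, from 2.58 for Csf1r to 3.95 for C1qa.

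Since markers of all microglia were higher, the 8 genes were also set against the geometric mean of the pan-microglial genes, which ran from 24.7 to 27.3 CPM in the sham mice and reached 207, 229 and 354 CPM in BCAS mice 1 to 3. A difference on this scale is relative to microglial marker RNA and does not tell cell number from RNA per cell. Cst7 was 0.00561 ± 0.00264 of that mean in sham mice and 0.778 ± 0.0796 of it in BCAS mice (SD, n = 3), a ratio of group means of 139. Clec7a went from 0.0260 ± 0.0136 to 0.395 ± 0.0364 (SD, n = 3), a ratio of 15.2. Ch25h went from 0.0193 ± 0.00589 to 0.0651 ± 0.0120 (SD, n = 3), a ratio of 3.37. For these 3 genes every BCAS mouse was above every sham mouse on this scale too, as for 0.752% of all tested genes.

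Spp1 and Gpnmb overlapped between the groups once microglial markers were taken as the scale. The Spp1 values were 0.369, 0.216 and 0.504 in sham mice 1 to 3 and 0.503, 1.13 and 0.685 in BCAS mice 1 to 3. Those of Gpnmb were 0.220, 0.204 and 0.127 in sham mice and 0.159, 0.623 and 0.309 in BCAS mice. In both genes the overlap came from BCAS mouse 1. The genes Cd9, Baiap2l2 and Fabp5 had lower group means in BCAS mice on this scale. The Cd9 ratio averaged 1.71 ± 0.226 in the sham group and 0.915 ± 0.127 in BCAS mice (SD, n = 3), and every BCAS mouse was lower, as for 96.1% of all tested genes. For Baiap2l2 the sham values of 0.0726 to 0.135 and the BCAS values of 0.0580 to 0.0806 overlapped. For Fabp5 the ratio averaged 2.81 ± 0.206 in the sham group and 0.367 ± 0.0919 in BCAS mice (SD, n = 3).

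An edgeR fit with the pan-microglial mean as library scale passed 5 of the 8 genes, with log2 fold changes of 7.09 ± 0.42 for Cst7, 3.93 ± 0.34 for Clec7a, 1.75 ± 0.39 for Ch25h, 1.09 ± 0.29 for Spp1 and -2.94 ± 0.32 for Fabp5 (SE). Over all tested genes 0.5% passed as higher on this scale and 96.4% as lower. Gpnmb with 0.99 ± 0.29, Cd9 with -0.90 ± 0.30 and Baiap2l2 with -0.71 ± 0.32 (SE) did not pass. This fit gave all genes a common spread, so its errors do not follow the spread of each gene between mice, and its P values are not printed. Leaving out BCAS mouse 2 brought Spp1 to 0.71 and Gpnmb to 0.35, and leaving out sham mouse 2 brought Spp1 to 0.83, which is under the threshold. Gpnmb passed, with at most 1.34, without sham mouse 1, sham mouse 2 or BCAS mouse 1, and without BCAS mouse 3 it had 1.09 but an adjusted P over 0.05, and Cd9 reached -1.02 without BCAS mouse 1. With homeostatic genes as the scale, whose geometric mean lay at 21.6 to 24.1 CPM in the sham group and at 81.9 to 129 CPM in the BCAS group, Cst7, Clec7a, Ch25h, Spp1 and Gpnmb had 8.29, 5.16, 2.96, 2.30 and 2.24. On that scale 1.58% of tested genes passed as higher and 90.2% as lower, and the direction of Cd9 (0.31) and Baiap2l2 (0.52) turned, with neither past the thresholds, while Fabp5 had -1.73.

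**Figure D3:**
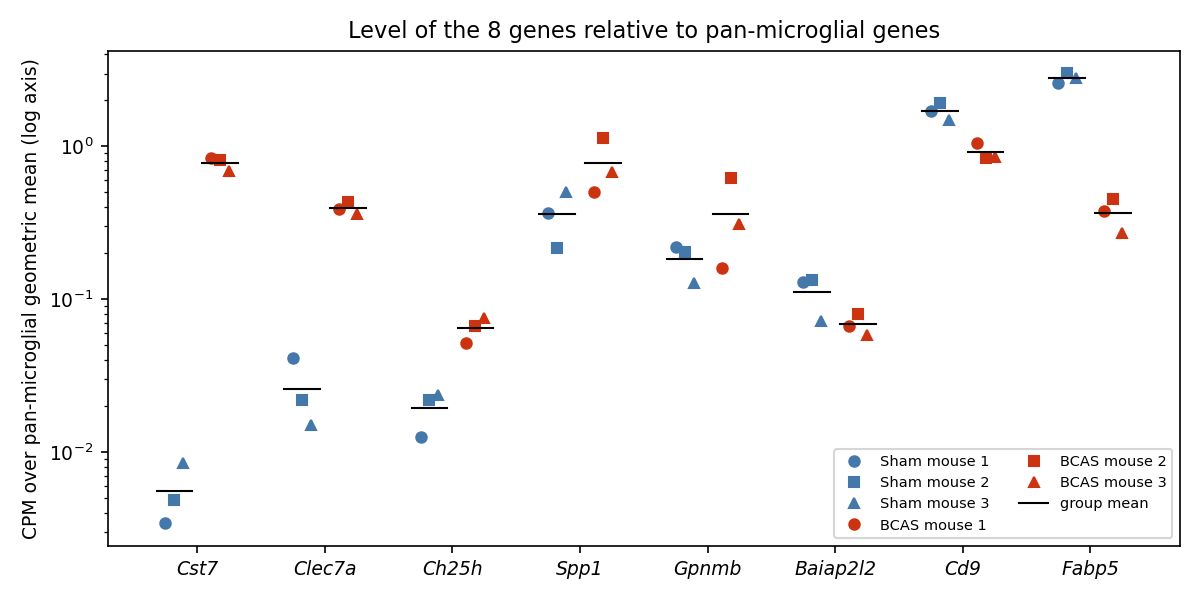
Level of the 8 genes divided by the geometric mean of the 8 pan-microglial genes in the same library (log axis), in the 3 sham mice (blue) and the 3 BCAS mice (red), with black bars for group means. Cst7, Clec7a and Ch25h stay apart between the groups and higher in BCAS mice, Spp1, Gpnmb and Baiap2l2 overlap, and Cd9 and Fabp5 lie lower in BCAS mice.

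The 8 genes did not order the BCAS mice alike. Mouse 3 was highest for Cst7, Clec7a, Cd9, Ch25h and Baiap2l2, as it was for the pan-microglial genes, and its values were 1.17 to 1.52 times the BCAS mean. Mouse 2 was highest for Spp1 (1.29 times the mean), Fabp5 (1.12 times) and Gpnmb (143 CPM against a mean of 95.2 CPM). Mouse 1 had 0.514 of the mean for Spp1 and 0.346 for Gpnmb, against 0.784 for the pan-microglial genes. The same order of mice 2, 3 and 1 was seen for the galectin gene Lgals3 (1.29, 1.20 and 0.510 of the mean), for Lyz2 (1.27, 1.10 and 0.637) and for the collagen gene Col3a1 (1.55, 1.08 and 0.375). Most genes of the same lists had mouse 3 highest, in 9 of 13 other late genes and 8 of 9 early genes of the disease-associated state. The fibroblast markers were not uniform either, since Dcn also had mouse 2 highest but Col1a1, Col1a2 and Lum had mouse 3 highest (1.41, 1.30 and 1.37 of the mean). Over 3 mice such an order is a description.

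**Figure D4:**
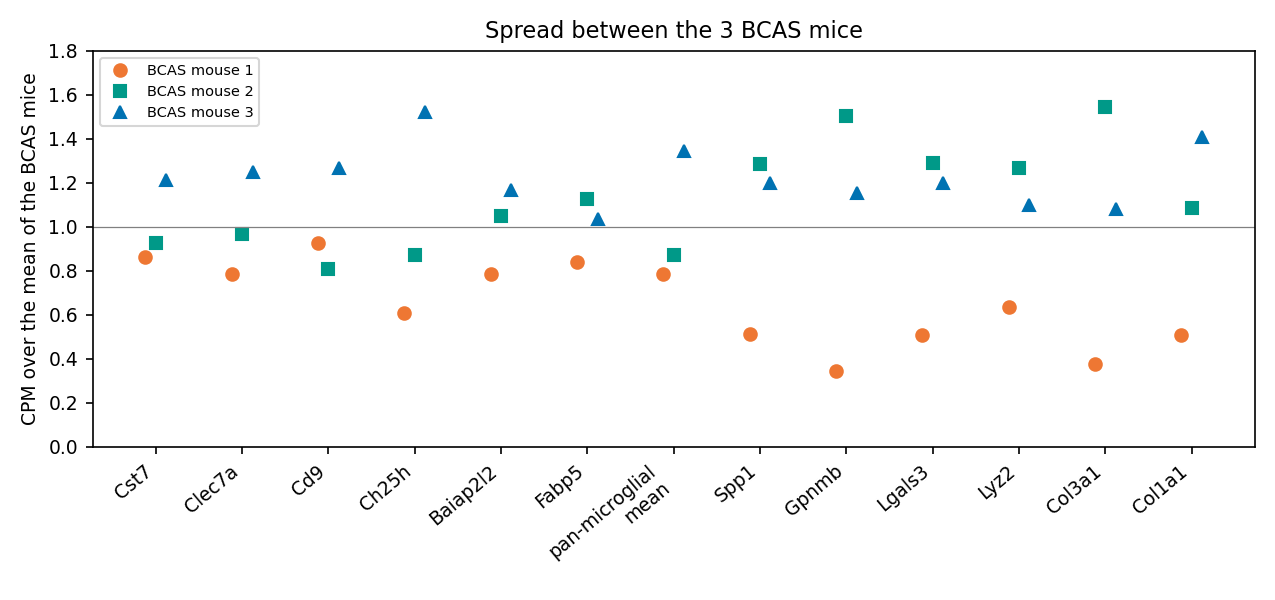
CPM of each gene in BCAS mice 1 (circle), 2 (square) and 3 (triangle) divided by the mean of the 3 BCAS mice, with a line at 1. Mouse 1 has 0.346 of the mean for Gpnmb, 0.375 for Col3a1 and 0.514 for Spp1. Mouse 3 has 1.34 times the mean for the pan-microglial genes and 1.52 times for Ch25h.

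Markers of other cells were counted because Spp1, Gpnmb, Cd9 and Fabp5 are not confined to microglia. Meningeal fibroblast markers were higher in 3 of 5 genes (1 in a test against the fold threshold itself) and lower in none, and none was at 0. Their summed level reached 120, 81.0 and 169 CPM in sham mice 1 to 3 and 178, 330 and 325 CPM in BCAS mice 1 to 3. Col3a1 had the highest log2 fold change of these with 3.09 ± 0.51 (SE, edgeR adjusted P = 0.0025), and Dcn the lowest with 0.27. Spp1 had the same order over the sham mice as this sum. Gpnmb did not, with 5.70, 5.03 and 3.47 CPM in sham mice 1 to 3, and was lowest where the sum was highest. Over the BCAS mice, Spp1, Gpnmb and the sum were all lowest in mouse 1. So were the pan-microglial mean (0.784 of its BCAS mean) and every other of the 8 genes except Cd9. Mice 2 and 3 were close in the sum, and 3 of its 5 genes were highest in mouse 3. Border-associated macrophage markers were higher in 4 of 6 genes and lower in none, from 0.14 for Lyve1 to 1.37 for F13a1. Without BCAS mouse 3 the count was 2, and none passed a test against the fold threshold itself. Their summed level was 10.3 to 14.8 CPM in sham mice and 25.7 to 33.5 CPM in BCAS mice. Monocyte and neutrophil markers were higher in 3 of 5 tested genes (Ccr2, Ly6c2 and Plac8) and lower in none, from 1.04 for Chil3 to 7.18 for Ly6c2. Sham mice 1 to 3 had 0, 1 and 0 counts of Ly6c2, so the size of its log2 fold change (SE 0.73) is poorly determined. The sum was 0.658 to 1.95 CPM in sham mice and 6.13 to 13.2 CPM in BCAS mice. The neutrophil marker Ly6g had 0 counts in all libraries. The part of these cells in the levels of the 8 genes was not tested.

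Among brain cell types, neuronal markers had a summed level of 8925 to 9477 CPM in sham mice and 4586 to 6763 CPM in BCAS mice. All 6 were lower by adjusted P alone, as 13.2% of tested genes were, and none passed the fold threshold, with log2 fold changes from -0.70 for Camk2a to -0.46 for Gad1. Astrocyte markers passed in 2 of 6 genes, both higher, from 0.41 for Slc1a2 to 3.29 for Gfap. All 6 astrocyte markers were higher by adjusted P alone, as 18% of tested genes were. Their sum was 3554 to 3920 CPM in sham mice and 8372 to 8997 CPM in BCAS mice. Gfap made up most of this difference, with means of 375 CPM in sham mice and 3678 CPM in BCAS mice. None of 6 oligodendrocyte markers (-0.04 for Mog to 0.42 for Mbp), 4 precursor markers (0.06 for Olig2 to 0.73 for Cspg4) and 5 endothelial markers (0.32 for Cldn5 to 0.98 for Cdh5) passed. Without sham mouse 3 Cdh5 passed, and the endothelial count moved under 2 of 16 alternatives. By adjusted P alone 4 of the 5 endothelial markers were higher. Of the precursor markers 1 was higher by adjusted P alone. None of 5 choroid plexus markers passed (0.64 for Kl to 1.32 for Kcnj13), and their sum varied from 66.1 to 4040 CPM in sham mice and from 45.0 to 5869 CPM in BCAS mice, without a fixed relation to the group.

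The tested gene outside the 8 whose log2 CPM, centred on its mean over the 6 libraries, lay nearest to each of them was also found, with the root mean square difference as distance. The distance includes the difference between the groups. A prior count of 2 was added before taking logs, which shrinks the differences of sparsely counted genes. Near genes can therefore differ in log2 fold change, as Baiap2l2 with 2.61 and its nearest gene with 3.37. Fabp5 had the closest neighbour, the glycosyltransferase gene C1galt1 at 0.0307, and Cd9 the next, the cholesterol exporter Abca1 at 0.0834. Baiap2l2 lay nearest to the predicted gene Gm13212 at 0.119, Ch25h to the surface glycoprotein gene Cd52 at 0.153, and Clec7a to the chemokine gene Ccl3 at 0.19. Spp1 lay nearest to Cd48 at 0.288 and Gpnmb to Lgals3 at 0.335, a gene of the disease-associated state. Cst7 had no near neighbour, with Ccl3 the nearest at 1.46. Ccl3 had 3 counts or fewer in each sham library.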

How the data were processed

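RNA-seq libraries from the right hippocampus of 3 sham and 3 BCAS mice, grouped by their labels, were used. According to the methods and the submitters' processing notes, the authors trimmed reads with Trim Galore, aligned them to mm10 with HISAT2 and counted them with featureCounts. The deposited counts are raw whole numbers per gene. The file headers name featureCounts 2.0.3 and GENCODE M20, the methods featureCounts 1.6.3 and RefSeq genes. Mates were counted separately, strand was not used, and reads with several alignments or on several genes were not counted, so overlapping genes lose reads. Of 54752 genes 29 had no symbol.

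The members, lists and tests were chosen with earlier results of these data known. Counts were filtered with filterByExpr, scaled by TMM (factors 0.964 to 1.05) and compared with edgeR 4.0.16 (quasi-likelihood, Benjamini-Hochberg adjustment, no replicate block) in R 4.3.3 under the thresholds of the study's methods, with a log2 prior count of 2 for likeness. The standard error is the log2 fold change over the root of F. The common biological coefficient of variation was 0.161. FPKM used exon lengths of the files. In the fit scaled by pan-microglial genes the prior degrees of freedom were infinite. All 8 members were named, with the highest and lowest gene of each list and the nearest gene of each member; other genes were named after their values were seen. The 75-base stretches of member transcripts shared with other genes' transcripts made up 8.55% for Spp1, 7.63% for Cd9, 6.47% for Ch25h, 3.03% for Fabp5 and 0% for the others.

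Alternatives were DESeq2 1.42.0, limma-voom 3.58.1, RLE factors, library totals, other filters, glmTreat, halved and thinned counts, a replicate block, another reference list and leaving out each mouse. The steps were tested on simulated data. The genes changed there had higher sham levels and smaller changes than Cst7, Clec7a and Ch25h, so that test does not cover them. The replicate numbers follow the labels, which differ from the numbering of the columns deposited for the BCAS mice. They were not taken as pairs, since the deviations of same-numbered libraries from their group means correlated at 0.036, -0.314 and -0.158. Totals ran from 29652456 to 35607098 counts. With TMM factors applied, 3 counts were 0.0875 to 0.0995 CPM, and such limits cover counting error only.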

Additional observations from a re-analysis of the deposited data

How the results depend on the processing

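Over 16 alternatives each, no log2 fold change of the 8 genes changed direction, and 7 of 8 passed both thresholds each time. Fabp5, which never passed the fold threshold, had an adjusted P on either side of 0.05. The ranges when 1 mouse was left out were 10.11 to 10.86 for Cst7, 6.99 to 7.75 for Clec7a, 4.12 to 4.76 for Spp1, 3.91 to 4.74 for Gpnmb, 2.22 to 2.55 for Cd9, 0.24 to 0.45 for Fabp5, 4.69 to 5.39 for Ch25h and 2.40 to 2.76 for Baiap2l2. The number of all tested genes past the thresholds was 1762, and 818 with glmTreat, which tests against the fold threshold itself. They numbered 1306 without BCAS mouse 3 and at most 1976 without another mouse, and 1595 with the replicate number as a block, where the 8 genes gave 7 as before. The block changed no call of the 8 genes, and the numbers do not pair the mice.

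With the limit of detection at 0 counts, 0 of the 24 pairs of a gene and a sham library were at it, and with 10 counts it was 3, all of Cst7. Relative to pan-microglial genes the count of 5 was 4 without BCAS mouse 2 and 7 without BCAS mouse 1, and 5 with the block. Cd9 and Baiap2l2 turned to 0.31 and 0.52 with homeostatic genes as the scale; the cause was not tested. Of 704 counts of list genes under an alternative, 690 stayed within 1.5 times the main count. With glmTreat, border-associated macrophage and cystatin genes gave 0, and oxysterol and meningeal fibroblast genes gave 1. Depth limits Cst7 in sham mice, with 15 summed counts, beside the spread between mice.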
